A study of Drosophila melanogaster with 15 samples.

Results

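The transfer RNA (tRNA) genes of the Drosophila melanogaster nuclear genome were examined in 3 lists of R-loop peaks. The genes were all those of the RefSeq annotation of Release 6 (dm6) on the chromosomes that carry peaks whose symbol starts with "tRNA:", which gave 295 of 17796 genes. A symbol gives the amino acid (isotype), the anticodon and a serial number, as in tRNA:Gln-CTG-2-2. Of the 295 genes, 5 were annotated as pseudogenes, 100 lay on 2R, 79 on 3R, 49 on 3L, 41 on 2L and 26 on X. They were 71 to 186 bp long, with a median of 73 bp, and 16 contained an intron.

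R-loops are structures in which an RNA pairs with one DNA strand and displaces the other. They were mapped by ssDRIP-seq, in which DNA with RNA:DNA hybrids is pulled down with the S9.6 antibody and sequenced from single strands so that the strand is kept. The lists came from S2 cells, an established line derived from late Drosophila embryos, and from untreated whole Oregon R embryos collected 2-3 h (early embryos) and 14-16 h (late embryos) after egg laying. Each sample type had 2 ssDRIP replicates, 2 inputs and 1 further ssDRIP sample digested with RNase H1, which degrades RNA paired with DNA. Each list pools its replicates and gives only the position and strand of each peak, and the lists used here held 28464 of them for S2 cells, 22581 for early and 28961 for late embryos. No difference between lists could therefore be set against a replicate spread or tested, and the depth of the libraries is unknown. In whole embryos, hybrids in fewer cells and fewer hybrids per cell cannot be told apart.

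tRNA genes are transcribed by RNA polymerase III at high rates in growing cells. The promoter of most lies inside the gene, in stretches called the A box and the B box, which the factor TFIIIC recognises before TFIIIB brings in the polymerase. Transcription stops at a short run of T on the strand that reads like the tRNA, just after the gene. In yeast, tRNA genes are known as sites where RNA:DNA hybrids accumulate when RNase H is missing.

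The annotated genes carried these features. The letters GTTCNANNC, which cover most B boxes, were found on the gene's own strand in 274 of the 295 genes (92.9%), against 1.04% of genome windows of 73 bp on 1 strand. A run of at least 4 T lay within 30 bp after 281 genes (95.3%), against 21.1% of 30 bp windows. A match is a description of letters and does not show that a factor binds there. The sequences below are those of genes on which the results turn, each with the 40 bases that follow it, read 5′ to 3′ on the gene's own strand from the RefSeq genome of Release 6 (dm6). Capitals mark the B box letters within the gene and every run of at least 4 T after it.

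The first 4 genes had a peak on the strand opposite to the gene in all 3 lists, the next 3 had a peak on their own strand in 1 list only, Gly-GCC-1-1 had peaks on both strands in both embryo lists, and the initiator methionine gene iMet-CAT-1-3 had none.
tRNA:Tyr-GTA-1-2 (chr2L:2459924-2460044, minus strand): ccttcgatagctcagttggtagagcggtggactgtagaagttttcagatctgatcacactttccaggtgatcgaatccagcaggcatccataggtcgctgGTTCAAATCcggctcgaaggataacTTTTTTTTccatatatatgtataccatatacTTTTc
tRNA:Val-CAC-2-6 (chr3R:19790122-19790194, plus strand): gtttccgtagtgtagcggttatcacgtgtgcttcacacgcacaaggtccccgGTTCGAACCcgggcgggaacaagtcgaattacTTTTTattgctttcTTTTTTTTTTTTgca
tRNA:Ala-AGC-2-11 (chr3R:19790972-19791044, plus strand): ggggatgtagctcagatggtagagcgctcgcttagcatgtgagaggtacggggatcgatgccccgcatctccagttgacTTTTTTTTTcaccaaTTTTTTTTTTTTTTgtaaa
tRNA:Gln-TTG-1-3 (chr3R:26947512-26947583, minus strand): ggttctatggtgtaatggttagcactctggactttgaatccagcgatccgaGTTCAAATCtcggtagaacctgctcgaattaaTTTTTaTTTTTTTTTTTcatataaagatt
tRNA:Ile-TAT-1-1 (chr3L:769503-769600, plus strand): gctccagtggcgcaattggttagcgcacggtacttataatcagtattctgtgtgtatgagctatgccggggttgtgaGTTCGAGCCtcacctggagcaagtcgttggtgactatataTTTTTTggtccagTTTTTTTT
tRNA:Ile-TAT-1-2 (chr3L:770363-770462, plus strand): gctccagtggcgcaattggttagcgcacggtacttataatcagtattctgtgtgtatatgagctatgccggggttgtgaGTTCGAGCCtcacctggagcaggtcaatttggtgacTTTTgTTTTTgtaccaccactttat
tRNA:Gln-TTG-2-1 (chrX:3427452-3427523, minus strand): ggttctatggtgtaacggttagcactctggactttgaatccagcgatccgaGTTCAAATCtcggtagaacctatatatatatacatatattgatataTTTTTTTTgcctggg
tRNA:Gly-GCC-1-1 (chr2L:1938089-1938159, minus strand): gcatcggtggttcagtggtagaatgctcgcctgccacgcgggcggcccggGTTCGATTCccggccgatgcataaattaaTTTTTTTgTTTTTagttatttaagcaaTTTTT
tRNA:iMet-CAT-1-3 (chr3L:743723-743794, minus strand): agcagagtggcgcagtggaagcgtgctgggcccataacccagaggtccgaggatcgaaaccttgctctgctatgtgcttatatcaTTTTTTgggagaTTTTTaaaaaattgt
Among the 4 genes with an opposite-strand peak in every list, the longest T run in the 40 bases after the gene was 8 in Tyr-GTA-1-2, 12 in Val-CAC-2-6, 14 in Ala-AGC-2-11 and 11 in Gln-TTG-1-3. In iMet-CAT-1-3, which was chosen for display because it had no peak, the longest was 6. Other iMet genes without a peak had longer runs. Within 100 bp after the gene the longest was 16 in iMet-CAT-2-1 and 9 in iMet-CAT-1-4.

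On their own strand, tRNA genes were rarely covered by a peak in S2 cells and early embryos, and more often in late embryos. A gene was counted as covered when a peak on that strand shared at least 1 bp with it, with strands as the lists give them. In S2 cells 5 of 295 genes were covered on their own strand, which is 1.69% (95% Wilson interval 0.726% to 3.91%). The same held for 6.05% of genome windows of 73 bp on 1 strand and for 8.37% of the 717 other genes of at most 200 bp. These short genes include 2 repeated arrays, 100 ribosomal 5S genes and pseudogenes on 2R and 20 genes of the same small noncoding RNA name (sncRNA) on 2L, whose reads may not be placed to 1 copy. The 597 short genes outside the arrays, a comparison chosen after the data were seen, stood at 4.36% in S2 cells. In early embryos 4 genes were covered (1.36%, 0.529% to 3.43%), against 4.46% of windows, 8.93% of the other short genes and 4.69% of those outside the arrays. In late embryos 29 genes were covered (9.83%, 6.93% to 13.8%), against 5.41% of windows and again 8.93% of the other short genes, but 3.69% of those outside the arrays. Weighting the windows by the chromosome arms on which the tRNA genes lie gave 6.57%, 4.43% and 5.10%. The own-strand share of tRNA genes was thus below the windows and the short genes outside the arrays in the first pair of lists, and above both in the last. The intervals cover counting error only, and they are too narrow, since neighbouring genes can share a peak.

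On the other strand every share was higher than on the own strand, and late embryos again had the highest. Peaks on the strand opposite to the gene covered 13 genes in S2 cells (4.41%, 2.59% to 7.39%), where 6.83% of the other short genes and 5.53% of those outside the arrays were covered. They covered 22 genes in early embryos (7.46%, 4.98% to 11.0%), where the shares were 7.67% and 2.85%. In late embryos they covered 39 genes (13.2%, 9.82% to 17.6%), where they were 7.95% and 3.85%. The window shares on 1 strand are those given for the own strand. Of the genes covered on their own strand, 3 of 5, 3 of 4 and 21 of 29 were also covered on the other strand in S2 cells, early embryos and late embryos. In late embryos 7.12% of tRNA genes were covered on both strands, compared with 2.75% of windows and 6.28% of the other short genes, arrays included. When peaks sharing 50% of both widths with one on the opposite strand were left out, which kept 55.5% of that list, 8 genes were covered on their own strand (2.71%), against 2.60% of arm-weighted windows, and 17 on the other (5.76%). Without such paired peaks the own-strand share in late embryos thus stood near the level of the windows, and the other-strand share above it. By contrast, among 13944 protein-coding genes, which are much longer, the own strand was covered more often than the other, with 29.9% against 20.6% in S2 cells, 26.4% against 19.0% in early embryos and 23.9% against 21.8% in late embryos.

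**Figure D1:**
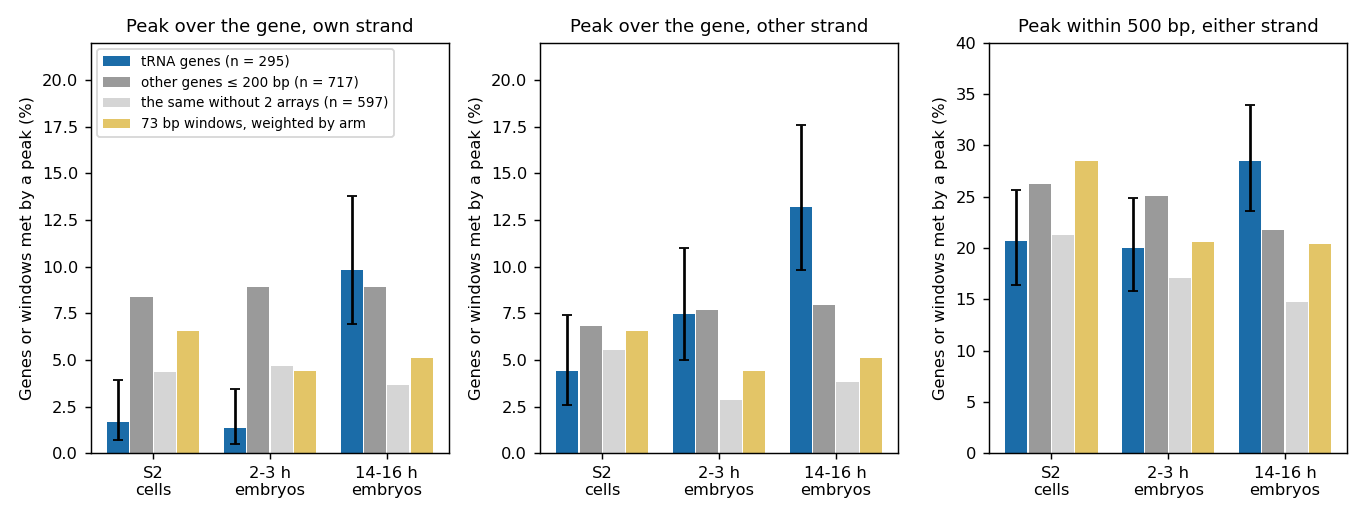
Percent of tRNA genes (blue, with 95% Wilson intervals), other genes of at most 200 bp (grey), those outside the 5S and sncRNA arrays (light grey) and genome windows of 73 bp weighted by chromosome arm (yellow) met by a peak in each list, on the gene's own strand, on the other strand, and within 500 bp on either strand. On the own strand tRNA genes stood at 1.69% in S2 cells, 1.36% in early (2-3 h) and 9.83% in late (14-16 h) embryos.

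Peaks over a gene or within 500 bp of it, on either strand, were found at 61 tRNA genes in S2 cells (20.7%, 16.4% to 25.7%). This compares with 26.3% of windows, 26.2% of other short genes and 21.3% of those outside the arrays. In early embryos 59 genes had such a peak (20.0%, 15.8% to 24.9%), where windows stood at 20.7%, other short genes at 25.1% and those outside the arrays at 17.1%. In late embryos there were 84 (28.5%, 23.6% to 33.9%), with 21.4% of windows, 21.8% of other short genes and 14.7% of those outside the arrays. In no list was there a peak within 500 bp of 169 of the 295 genes. The same held for 407 of the 717 other short genes, a similar share, and for 7838 of all 17796 genes.

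The position of the peaks showed where coverage was lost or gained. In S2 cells, own-strand peaks covered 1.55% of tRNA genes at an average base of the gene, with 2.99% in the 500 bp before and 2.24% in the 500 bp after, below the arm-weighted genome level of 5.75%. The other strand was below that level too, at 3.07% over the gene, 2.75% before it and 3.89% after. On the own strand coverage returned towards that level with distance and was 5.51% at 950 to 1000 bp after the gene. In early embryos the own strand was also low, at 1.26% over the gene against 3.85% in the genome, while the other strand was covered at 6.70% of genes. Unlike in S2 cells, own-strand coverage there stayed below the genome level throughout the 1000 bp before the gene. It was 1.34% at 750 to 700 bp before the gene and 3.66% at 350 to 300 bp before it. After the gene it reached 3.89% at 500 to 550 bp. In late embryos coverage was highest at the gene itself, 8.85% on the own strand and 12.4% on the other, against 4.38% in the genome. Peaks on the other strand leaned to the downstream side, where the T run lies. In that list they covered 9.58% of genes over the 500 bp after the gene and 5.91% over the 500 bp before it.

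The peaks were several times wider than a tRNA gene. In late embryos the 29 genes covered on their own strand were met by 24 different peaks with a median width of 426 bp, and the 39 genes covered on the other strand by 32 peaks with a median of 440 bp, where the median of the whole list was 387 bp. A single peak covered up to 3 genes. Most covered genes lay entirely inside a peak, 22 of 29 on the own strand and 35 of 39 on the other. The boundaries of a peak thus do not mark the ends of a gene.

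Individual genes differed between the lists. No tRNA gene was covered on its own strand in all 3 lists, 5 were covered in 2 lists and 28 in 1, of which 24 were in late embryos, 3 in S2 cells and 1 in early embryos. Of the 717 other short genes 13, 45 and 59 were covered in 3, 2 and 1 lists, and of all 17796 genes 2040, 2076 and 2571. With 5 tRNA genes covered in S2 cells and 4 in early embryos, few could have been covered in all 3 lists. The 3 tRNA genes of S2 cells alone were Ile-TAT-1-1, Ile-TAT-1-2 and Ala-TGC-1-1. The first pair are intron-bearing isoleucine genes, 960 bp from end to end on 3L, and Ala-TGC-1-1 lies on 2R. A peak of 550 bp covered all of Ile-TAT-1-2, with no other-strand peak over the gene in any list. Ile-TAT-1-1 lay under own-strand and other-strand peaks of 407 and 314 bp in S2 cells, and under an other-strand peak of 336 bp in late embryos. The gene of early embryos alone was Gln-TTG-2-1, a glutamine gene on X that overlaps CG12535 on the same strand and lncRNA:CR44999 on the other, under peaks of 915 bp on its own and 1242 bp on the other strand.

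Among the 24 genes found on their own strand in late embryos alone, the widest peaks lay at Glu-TTC-1-1 on 2R (1341 bp, covering 25 bp of the gene), Lys-TTT-2-4 on 3R (828 bp), Gln-CTG-2-3 on 2L (788 bp) and Ala-AGC-2-1 on 3L (770 bp). Glu-TTC-1-1 overlaps mrj, which is read from the same strand, and Ala-AGC-2-1 overlaps nmo, which is read from the other. Where genes overlap on a strand, the position of a peak does not show to which it belongs. The peak at Lys-TTT-2-4 also spans the neighbouring 7SL RNA gene 7SLRNA:CR32864, which is read from the other strand. The 5 genes covered in 2 lists were Asp-GTC-1-6 and Cys-GCA-1-4 in S2 cells and late embryos, and Gly-GCC-1-1, Gln-CTG-2-2 and Glu-TTC-1-2 in both embryo lists. At Gly-GCC-1-1 the own-strand peak measured 610 bp in early and 615 bp in late embryos, and other-strand peaks of 864 and 414 bp overlapped it. All 5 were named after their values were seen.

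Other-strand peaks covered 4 tRNA genes in all 3 lists and 16 in 2. Of the 717 other short genes they covered 4 in 3 lists and 32 in 2, and of all 17796 genes 1623 and 1369. As each list had more tRNA genes covered on this strand than on the own strand, recurrence on the strands cannot be compared directly. The 4 tRNA genes covered in all 3 lists were Tyr-GTA-1-2, Val-CAC-2-6, Ala-AGC-2-11 and Gln-TTG-1-3, whose sequences are printed above. None of them overlaps another annotated gene. Over Val-CAC-2-6 the other-strand peaks measured 409 bp in S2 cells, 353 bp in early and 533 bp in late embryos, and each covered the whole gene. Over Ala-AGC-2-11, which follows it on the same strand, they measured 472, 470 and 520 bp, and the one in S2 cells covered only 20 bp of the gene. This pair was named after its values were seen. Both genes had own-strand peaks in late embryos only, of 376 and 231 bp. Tyr-GTA-1-2, an intron-bearing gene, was only partly covered, over 72, 42 and 80 of its 121 bp.

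Genes with an other-strand peak and no own-strand peak were led by Gln-CTG-2-5 (759 bp), Gln-TTG-1-3 (718 bp) and Tyr-GTA-1-2 (508 bp) in S2 cells. In early embryos they were led by Gln-CTG-3-1 (1241 bp), Tyr-GTA-1-2 (1128 bp) and Gln-CTG-2-3 (968 bp). In late embryos they were led by Gln-CTG-4-1 (1041 bp), Arg-ACG-1-6 (714 bp) and Asn-GTT-1-6 (480 bp). Gln-CTG-2-5, Gln-CTG-3-1 and Gln-CTG-2-3 lie in 1 cluster on 2L, and the first pair overlap CG4238, which is read from the strand of the peaks.

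**Figure D2:**
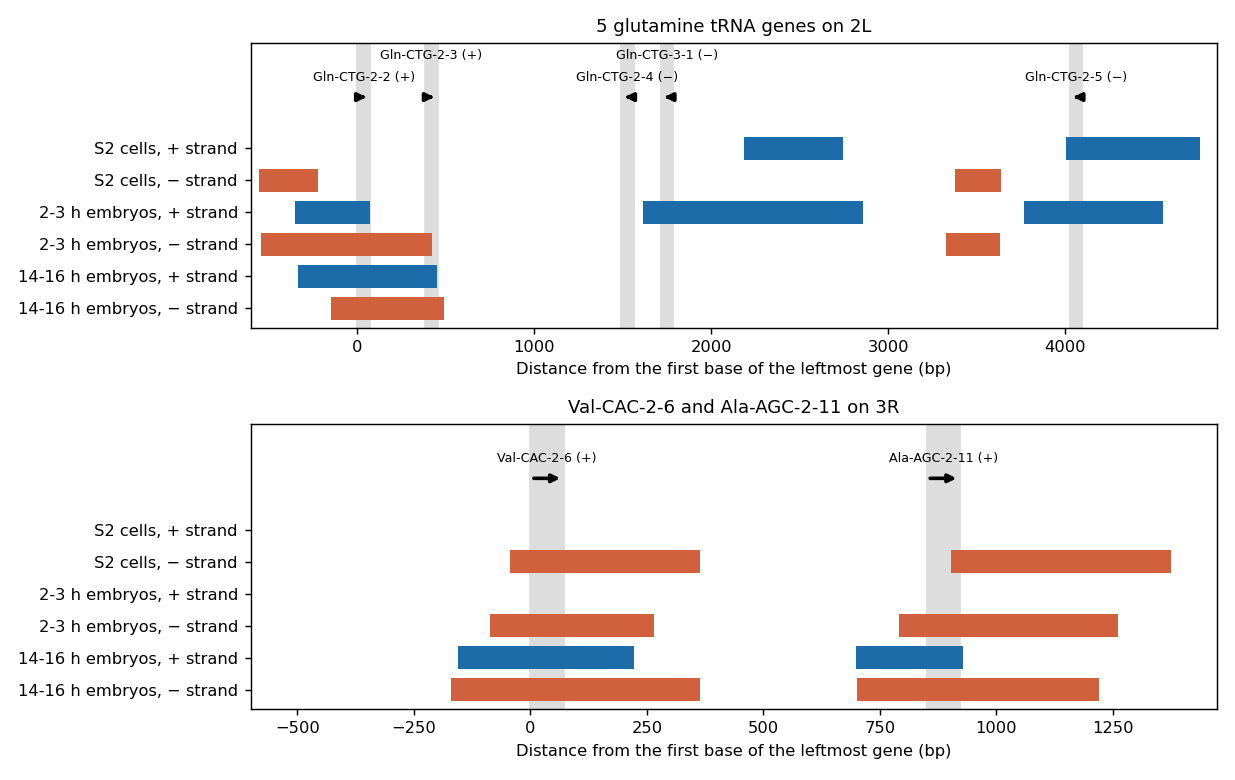
Peaks on the plus strand (blue) and minus strand (orange) of the chromosome within 500 bp of the genes of 2 clusters, in each list, with genes as grey bands and arrows pointing in the direction of transcription. Positions are in bp from the first base of the leftmost gene. At Val-CAC-2-6 and Ala-AGC-2-11 all 3 lists hold minus-strand peaks, opposite to the genes, and the list of 14-16 h embryos also holds plus-strand peaks of 376 and 231 bp.

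The 22 isotype classes, counting initiator methionine (iMet) and selenocysteine (SeC) apart, did not share the peaks evenly. The glutamine genes had the highest own-strand share. Of 12, 5 were covered on their own strand in at least 1 list and 10 had a peak within 500 bp, and in early embryos 6 were covered on the other strand. Histidine genes were near a peak at the same share, 5 of 6, with 1 covered on its own strand. They include the pseudogene His-GTG-2-1Psi, the only histidine gene near a peak in S2 cells and early embryos. In late embryos the same peak of 320 bp lay over or near His-GTG-1-1, His-GTG-1-2 and His-GTG-1-3. Of the 6 iMet genes, whose product starts every protein, none had a peak within 500 bp in any list, nor had the 1 SeC gene. Threonine, leucine and proline genes were also rarely near a peak, with none in any list at 16 of 18, 18 of 22 and 14 of 17 genes, and none of these was covered on its own strand. Methionine and phenylalanine genes had no own-strand peak either. In at least 1 list an own-strand peak covered 4 of 14 aspartate, 4 of 17 alanine, 3 of 19 lysine and 3 of 21 glutamate genes. It covered 2 genes each of arginine (26), isoleucine (12), serine (20) and tyrosine (10), and 1 gene each of asparagine (10), cysteine (7), glycine (20), tryptophan (8) and valine (15), where the numbers in brackets are the genes of the class. Classes are small and their genes cluster, so these counts are few independent places, and the share among all tRNA genes was 33 of 295.

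**Figure D3:**
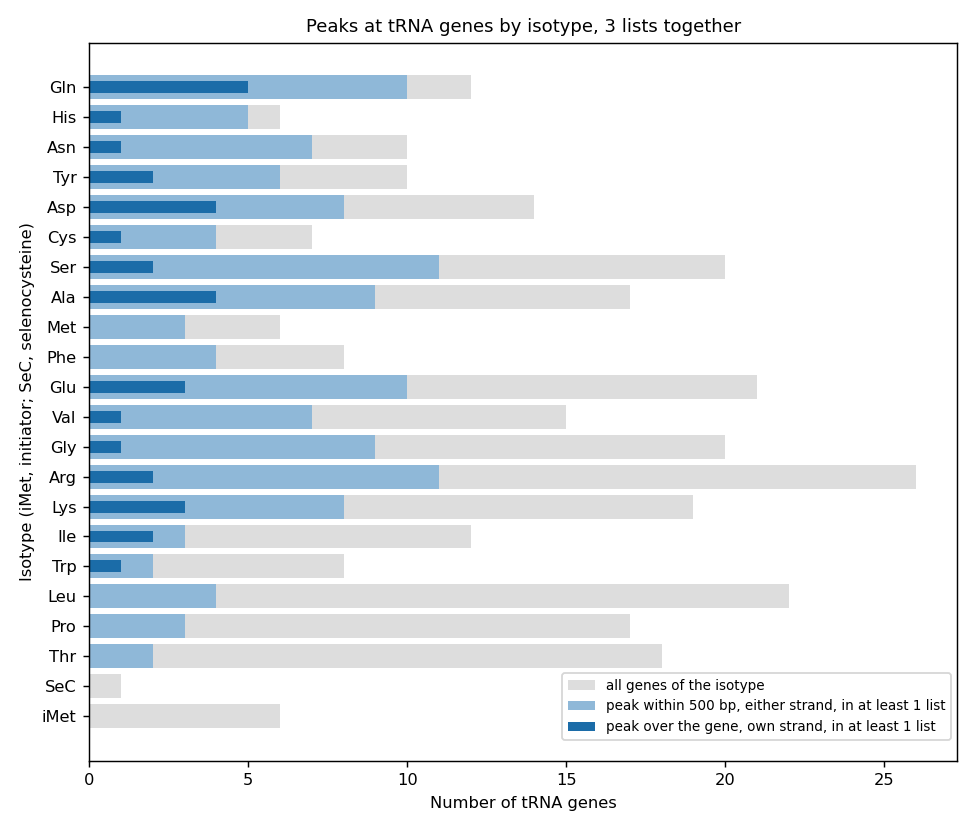
Number of tRNA genes of each isotype (grey), of those with a peak within 500 bp on either strand in at least 1 of the 3 lists (light blue) and of those covered on their own strand in at least 1 list (dark blue), ordered by the share with a peak within 500 bp. Glutamine with 10 of 12 genes and histidine with 5 of 6, a pseudogene among them, stand at the top, and iMet and SeC at the bottom with 0.

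tRNA genes lie in groups, and 218 of the 295 fell in 69 clusters of neighbours at most 5000 bp apart, with 77 single genes. In late embryos 24 of 218 clustered genes (11.0%) and 5 of 77 single genes (6.49%) were covered on their own strand. Of the clusters with the most genes, several held hardly any peak. The group of 7 isoleucine and leucine genes on 2R, the group of 7 arginine and serine genes on X and the group of 6 leucine genes on 3L had no peak within 500 bp of any gene in any list. A group of 6 glutamate genes on 3L had such peaks at 2, 2 and 0 genes in S2 cells, early embryos and late embryos. For a group of 6 cysteine and lysine genes on 3L the counts were 1, 0 and 1. In the group of 8 on 2R, with 6 glutamate and 2 iMet genes, 1 gene had a peak within 500 bp, in late embryos. That gene is a pseudogene, and the peak lies over copies of the 5S array, whose reads may not be placed to 1 copy. The 11 genes on 2R for lysine, arginine, asparagine and isoleucine had peaks within 500 bp at 1, 3 and 5 genes in S2 cells, early embryos and late embryos. The 11 genes on 3R for alanine, proline, threonine and valine had them at 4 in each list, and 1 gene of either group was covered on its own strand, in late embryos. In contrast, all 6 genes of a group on 3R, for arginine and asparagine, had a peak within 500 bp in late embryos and 5 had one in early embryos, with 0 in S2 cells. These were few peaks, 1 of 582 bp shared by the 5 genes in early embryos and a pair of 714 and 491 bp on opposite strands in late embryos.

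Clusters with the most own-strand genes differed between lists. It was the Ile-TAT pair on 3L in S2 cells, with 2 of 2, and the group of 3 glutamate genes on 2R in late embryos, with 3 of 3. In early embryos no cluster had more than 1. The 5 glutamine genes on 2L, spread over 4096 bp, all had a peak within 500 bp in early embryos, where 4 were covered on the other strand and Gln-CTG-2-2 on its own. In late embryos the peaks were confined to Gln-CTG-2-2 and Gln-CTG-2-3, under the same pair of peaks of 788 and 639 bp on opposite strands. This cluster and that of 6 arginine and asparagine genes were singled out after their values were seen.

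Chromosome arms differed as well. In late embryos 15 of the 79 genes on 3R (19.0%) were covered on their own strand, where 4.88% of that arm's windows were, and 35 had a peak within 500 bp on either strand. None of the 26 genes on X was covered in that list, on either strand, although 8.79% of its windows on 1 strand were, the highest share of any arm in that list. In S2 cells 3 of the 5 covered genes lay on 3L. The comparison of arms was not planned. Genes of an arm cluster and can share a peak, so these counts are fewer independent places than genes.

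Runs of T near tRNA genes went with peaks on the other strand. On that strand the run reads as A. All comparisons of runs were chosen after the data were seen. Of the 295 genes, 145 (49.2%) had a run of at least 8 T on their own strand within 500 bp, where 24.5% of genome windows had one, and 74 (25.1%) had a run of at least 8 A. In late embryos other-strand peaks covered 37 of the 145 genes with such a T run (25.5%) and 2 of the 150 without (1.33%). In early embryos the counts were 20 and 2 (13.8% and 1.33%), and in S2 cells 11 and 2 (7.59% and 1.33%). Nearly all genes covered on the other strand thus had a T run close by. Genome windows differed in the same direction. Those with a run of 8 A on the peak's strand within 500 bp were covered at 9.79% in S2 cells, 11.3% in early and 16.6% in late embryos, and those without at 4.83%, 2.25% and 1.78%. The share in tRNA genes with a T run was lower than in such windows in S2 cells and higher in both embryo lists. The interval of the tRNA share held the window share in S2 cells, 4.29% to 13.1%, and in early embryos, 9.11% to 20.3%, and did not in late embryos, 19.1% to 33.2%. These windows were not matched to the genes for the distance or length of the run, nor weighted by arm. Of the 145 genes, 98 had such a run within 100 bp after the gene. The comparison therefore cannot separate tRNA genes from the placing of their runs.

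With a longer run after the gene, a larger share of genes was covered on the other strand. Of the 64 genes whose longest T run within 100 bp after the gene was 4 or 5, none was covered on the other strand in any list. With 6 or 7 T, 11 of 133 genes (8.27%) were covered in late embryos, with 8 or 9 T 16 of 62 (25.8%) and with 10 or more 12 of 36 (33.3%). In early embryos the last class reached 8 of 36 (22.2%), and in S2 cells 5 of 36 (13.9%). On the own strand the same classes in late embryos gave 4 of 64, 8 of 133, 10 of 62 and 7 of 36. Not every gene with a T run was covered. Of the 22 leucine genes, 11 had a run of at least 8 T within 100 bp after the gene, and 2 of the 22 (9.09%) were covered on the other strand in late embryos. Of the 26 arginine genes as many had such a run, and 4 of the 26 (15.4%) were covered. Both shares are over all genes of the isotype, with or without such a run.

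**Figure D4:**
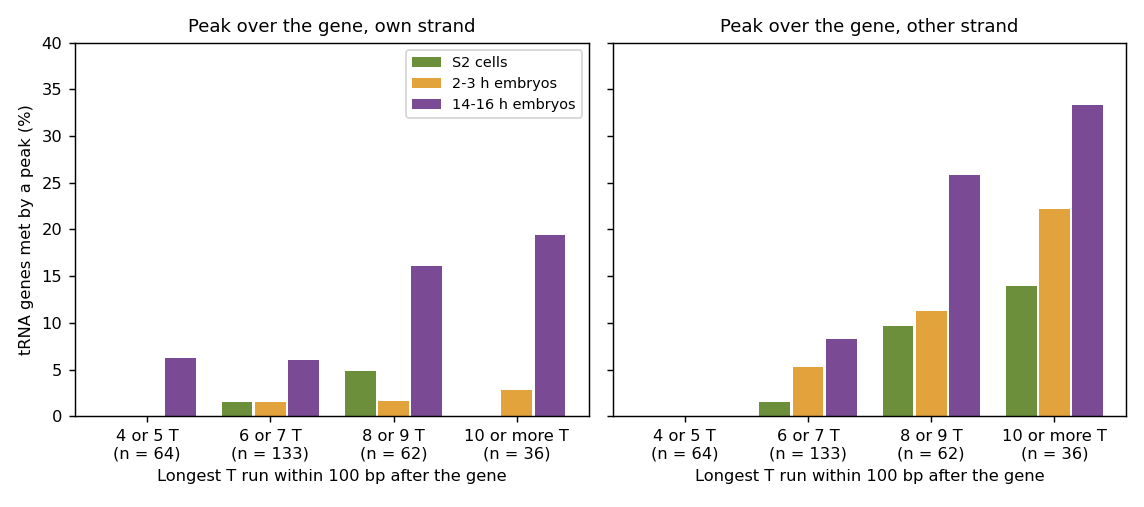
Percent of tRNA genes covered by a peak on their own strand (left) and on the other strand (right) in each list, by the length of the longest T run within 100 bp after the gene. On the other strand the shares in 14-16 h embryos were 0, 8.27%, 25.8% and 33.3% from the shortest to the longest class.

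Own-strand peaks did not follow A runs in the same manner. In late embryos 11 of the 74 genes with a run of at least 8 A on their own strand within 500 bp were covered on that strand (14.9%), and so were 18 of the 221 without (8.14%), where windows without a run stood at 1.78%. Of the 29 covered genes 23 had the T run, whose A side is on the other strand. The peaks themselves showed this too. A run of 8 A on the peak's own strand was present in 29 of the 32 other-strand peaks (90.6%) and in 9 of the 24 own-strand peaks (37.5%) over tRNA genes in late embryos, and in 68.8% of all peaks of the list. In S2 cells 11 of 13 other-strand peaks (84.6%) had one, against 33.9% of the list.

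Genes of identical sequence bear on how reads can be placed. Only 57 of the 295 sequences occur once in the genome, and 238 have from 2 to 13 identical copies, all of them annotated tRNA genes. How reads with several equally good positions were treated is not given in the sources used here. In S2 cells 3 of the 57 genes with 1 copy were covered on their own strand (5.26%), 1 of 103 with 2 to 5 copies (0.971%) and 1 of 135 with 6 to 13 (0.741%). The 3 genes are Ala-TGC-1-1 and the neighbours Ile-TAT-1-1 and Ile-TAT-1-2, so these are few places. Within 500 bp on either strand the S2 shares were 33.3%, 16.5% and 18.5%. The own-strand shares were 1.75%, 0.971% and 1.48% in early embryos, and 8.77%, 7.77% and 11.9% in late embryos. The part of copy number in the low S2 counts was not tested.

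Other annotated genes overlapped 138 tRNA genes, of which 53 overlapped a gene on the same strand, 77 one on the other strand and 8 genes on both. The 157 that overlap none were covered on their own strand at 1.91%, 0.637% and 10.8% in S2 cells, early embryos and late embryos, where all tRNA genes stood at 1.69%, 1.36% and 9.83%. In late embryos 27 of these 157 (17.2%) were covered on the other strand.

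Among other short noncoding genes, the 260 small nucleolar RNA genes were covered on their own strand at 3.46%, 1.15% and 1.54% in S2 cells, early embryos and late embryos. For 260 microRNA genes the shares were 5.38%, 7.69% and 5.77%. Other genes of RNA polymerase III were 100 ribosomal 5S genes and pseudogenes in a repeated array on 2R and 10 others, and 18, 24 and 41 of the 110 were covered on their own strand. Copies of the array are nearly identical, so these counts are uncertain. Of the 10, the 7SL RNA gene 7SLRNA:CR32864, for the RNA of the signal recognition particle, was covered on its own strand in all 3 lists, and its copy 7SLRNA:CR42652 in both embryo lists. Both are copies of the same RNA gene, and how their reads were divided is uncertain. In late embryos the peaks over 7SLRNA:CR32864 are those that also reach Lys-TTT-2-4, so they enter both counts. The 3 U6 genes, for a spliceosome RNA, were covered in none.

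Protein genes that serve tRNAs were covered as in the following counts, where protein-coding genes in all stood at 29.9%, 26.4% and 23.9%. Of 35 aminoacyl-tRNA synthetase genes, whose products charge tRNAs with amino acids, 6, 4 and 4 were covered on their own strand. Of 13 genes for subunits and factors of RNA polymerase III 4, 3 and 2 were. Brf, a subunit of TFIIIB, and Maf1, a repressor of the polymerase, were covered on both strands in all 3 lists, and both are long genes of 16505 and 14286 bp. Of 18 genes for tRNA processing and modification 2, 2 and 1 were, among them La, which binds the U run at the end of new transcripts, in S2 cells and early embryos.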

How the data were processed

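Peaks of ssDRIP-seq from S2 cells, early embryos and late embryos were used (15 samples, of which the replicates are pooled in 3 lists). Per the study's methods, the authors trimmed reads with Trimmomatic, mapped them to dm6 with bowtie2, flagged duplicates, split strands with SAMtools and ran MACS2 on the pair of replicates against the RNase H1-treated sample (the input is also named as a control), and removed peaks found on both strands with nearly the same extent. The deposited lists hold other values only, namely the position, width and strand of each peak, without score or height. Positions were converted to counting from 1.

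Genes, clusters, runs of bases and sequences came from RefSeq Release 6. Genome windows of 73 bp were tiled end to end on the same chromosomes. Shares carry 95% Wilson intervals, and no test was made. tRNA genes and gene lists were chosen with earlier results of these data known. Named genes were those covered on their own strand in all lists, per list the 4 with the widest peaks covered on their own strand in that list only, per list the 3 with the widest peaks covered on the other strand only, and the clusters with the most genes or most covered genes. Alternatives changed the overlap, the peaks, the genes, the window and the cluster gap. Overlap counts matched a direct count on simulated peaks in 6 of 6 settings. Python 3.11.15, pandas 2.3.3, SciPy 1.17.1 and matplotlib 3.10.9 were used.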

Additional observations from a re-analysis of the deposited data

How the results depend on the processing

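Of 70 alternatives, 49 stayed within the 95% interval of the value reported, or for counts within 1.5 times it, and 21 did not. No paired analysis was possible because the lists pool the replicates. Requiring 1 peak to cover at least 50% of the gene moved no share, and leaving out pseudogenes none. It was not run for the 500 bp window, which needs no overlap with the gene.

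With peaks wider than their list's median, the own-strand share in 14-16 h embryos was 6.44% (arm-weighted windows 3.25%), and the shares within 500 bp were 10.8%, 11.5% and 18.6% in S2 cells, early embryos and late embryos (windows 16.6%, 12.1% and 12.3%). Without peaks paired across strands, own-strand shares were 0.678% in S2 cells (windows 5.59%) and 2.71% in 14-16 h embryos (2.60%), the other-strand share in 14-16 h embryos was 5.76%, and the share within 500 bp there was 16.9% (13.8%). With the genes of 1 copy, S2 cells had 5.26% on the own strand, 8.77% on the other and 33.3% within 500 bp, and 14-16 h embryos 21.1% on the other strand. Genes that overlap no other gene gave 35.0% within 500 bp in 14-16 h embryos. Windows of 250 bp gave 11.9%, 14.9% and 21.7%, and windows of 1000 bp 35.9%, 31.9% and 39.3%, as a narrower or wider window must. Clusters numbered 71 and 70 with a shorter and a longer gap allowed. A T run of at least 6, chosen after the data were seen, gave other-strand shares of 7.94% in 2-3 h and 14.1% in 14-16 h embryos. For the other changes, the cause was not tested. Peak heights and depth are unknown, so a gene without a peak is not shown to lack hybrids.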
